A study of Arabidopsis thaliana with 8 samples.

Results

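The SLAC and ALMT anion channels of Arabidopsis thaliana are membrane proteins that let chloride, nitrate or malate out of the cell or across the vacuole membrane. The 8 genes described here, SLAC1, SLAH1 to SLAH4, ALMT1, ALMT9 and ALMT12, were taken by gene identifier out of a table of 33199 genes, by a rule that names them and uses no measured value. They are the whole SLAC family of 5 genes and 3 genes of the ALMT family of 14. The study compared roots with shoots of the Col-0 accession by sequencing of polyadenylated RNA, with 4 root and 4 shoot libraries. No treatment, mutant allele or transgene is named in the labels, and neither the plants' age nor how they were grown and harvested is given in the sources used here. Whether the 4 samples of each tissue come from separate cultures is not stated in the labels, and the p-values then measure the spread among these libraries alone, which may be technical.

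SLAC1 is the slow anion channel of guard cells, the cells that open and close the stomatal pore. Abscisic acid releases the kinase OST1 from type 2C protein phosphatases, OST1 and calcium-dependent kinases then switch SLAC1 on, and the loss of anions closes the pore. ALMT12 is the rapid anion channel of the same cells, ALMT9 is a vacuolar channel for malate and chloride, and ALMT1 releases malate from roots and is needed for aluminium tolerance under the transcription factor STOP1. SLAH3 is a nitrate-dependent channel of roots and guard cells, SLAH2 is a nitrate channel of roots, and SLAH1 is a partner of SLAH3 that takes part in moving chloride to the xylem.

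The sequence just upstream of 5 of the genes is shown because these 5 cover each outcome of the comparison, namely SLAC1 and ALMT12 (higher in shoot), SLAH1 and ALMT1 (higher in root) and ALMT9 (not called different). Each run holds the 250 bases before the annotated gene start, read 5′ to 3′ on the gene's own strand from the RefSeq copy of the TAIR10.1 assembly. Capitals mark TAAAG, a motif bound by DOF transcription factors, or CTTTA where the motif lies on the other strand. The SLAC1 window is the minus strand of chr1:4259301-4259550, the ALMT12 window the plus strand of chr4:9975115-9975364, and the SLAH1 window the minus strand of chr1:23008611-23008860. The ALMT1 window is the plus strand of chr1:2658352-2658601 and the ALMT9 window the plus strand of chr3:6327777-6328026.
SLAC1: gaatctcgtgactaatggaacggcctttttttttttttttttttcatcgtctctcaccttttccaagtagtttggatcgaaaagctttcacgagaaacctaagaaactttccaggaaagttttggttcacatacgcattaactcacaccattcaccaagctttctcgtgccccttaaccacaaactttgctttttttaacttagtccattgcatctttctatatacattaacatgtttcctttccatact
ALMT12: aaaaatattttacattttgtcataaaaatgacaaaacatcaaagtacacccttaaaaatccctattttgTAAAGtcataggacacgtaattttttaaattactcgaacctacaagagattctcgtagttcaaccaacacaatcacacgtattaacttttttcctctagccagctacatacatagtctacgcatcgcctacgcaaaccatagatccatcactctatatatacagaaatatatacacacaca
SLAH1: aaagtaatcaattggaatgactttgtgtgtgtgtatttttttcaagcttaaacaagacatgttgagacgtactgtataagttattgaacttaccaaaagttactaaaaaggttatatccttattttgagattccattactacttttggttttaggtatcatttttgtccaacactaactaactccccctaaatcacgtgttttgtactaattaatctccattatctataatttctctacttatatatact
ALMT1: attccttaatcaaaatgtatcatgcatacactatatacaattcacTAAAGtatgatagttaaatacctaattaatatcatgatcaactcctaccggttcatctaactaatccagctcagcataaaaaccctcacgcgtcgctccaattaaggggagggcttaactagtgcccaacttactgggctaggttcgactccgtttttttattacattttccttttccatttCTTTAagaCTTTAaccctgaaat
ALMT9: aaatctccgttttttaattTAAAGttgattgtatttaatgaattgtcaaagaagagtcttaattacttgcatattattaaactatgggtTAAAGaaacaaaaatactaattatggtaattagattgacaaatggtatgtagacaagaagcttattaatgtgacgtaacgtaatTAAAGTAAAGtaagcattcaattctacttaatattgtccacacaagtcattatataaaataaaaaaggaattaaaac

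The SLAC1 and SLAH1 windows held 0 copies of TAAAG on either strand, the ALMT12 window 1, the ALMT1 window 3 and the ALMT9 window 4. Of the 3 windows not printed, SLAH3 held 0, SLAH2 held 2 and SLAH4 held 3. Among the same windows of 27443 protein-coding genes, 58.8% held TAAAG at least 1 time, 7% held it 3 or more times and 1.68% held it 4 or more times. The letters ACGTG, the core of abscisic acid response elements, were found 2 times in the ALMT12 window, 2 times in the SLAH1 window and 1 time in the SLAH3 window, and 0 times in the other 5. In SLAH1 both hits are the same 6-base palindrome read on both strands. ACGTG was present in 22.9% of all windows. These matches describe letters in a window and do not show a binding site.

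Levels are given in FPKM, the read count divided by the gene's length and by a library size that the authors had scaled. Reads assigned to genes numbered 9857791 to 12460762 in the root libraries and 10044638 to 11662309 in the shoot libraries. Fold changes are the difference of mean log2(FPKM + 0.5), root minus shoot, a scale that understates the change of genes near 0. They were tested with limma over the 20314 genes that reached 0.5 FPKM in at least 4 of the 8 libraries. A gene was called at an adjusted p under 0.05 after Benjamini-Hochberg adjustment over all genes tested. By that rule 69.6% of the tested genes were called, 37.6% as higher in root and 32.0% as higher in shoot. The median of all tested genes was 0.07. Thus 54% of the called genes were higher in root, against 75.5% when the reads were scaled by library totals alone, a scaling that moved the median of all genes by 0.51, to 0.59.

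Of the 8 genes, 4 were higher in root, namely SLAH1, SLAH2, SLAH3 and ALMT1. SLAC1 and ALMT12, both known from guard cells, were higher in shoot. ALMT9 did not pass the test, and SLAH4 was below the filter and was not tested. The 6 genes called stand against the 69.6% of all tested genes that were called. SLAC1 and SLAH1 reached the filter only through the tissue where they were high, so these 2 genes had to differ. ALMT1 reached the filter value in every root library and in 1 shoot library. Nothing is read from the count. In the same 6 genes every library of one tissue lay above every library of the other, which was so in 64.8% of all tested genes, 34.7% with root above and 30.1% with shoot above.

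**Figure D1:**
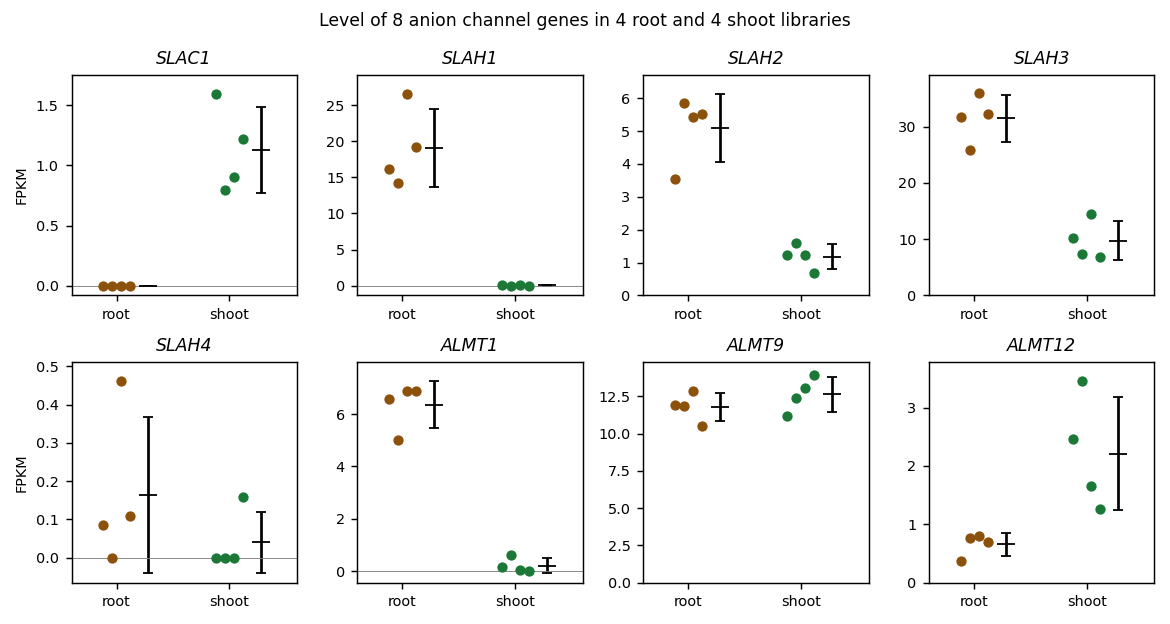
Level of each of the 8 genes in FPKM on a linear axis, with 1 point per library, root left of shoot, and bars at the mean ± SD of 4 libraries. SLAC1 is at 0 in all 4 root libraries, SLAH1 is at 14.2 FPKM or more in each root library and at 0.134 FPKM or less in each shoot library, and the points of ALMT9 and of SLAH4 overlap between the tissues.

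SLAC1 (AT1G12480) lies on the minus strand of chromosome 1 at 4257268 to 4259300. It was at 0 FPKM in root replicates 1 to 4, against 1.59, 0.797, 0.903 and 1.22 FPKM in shoot replicates 1 to 4. The shoot values rest on 26, 12, 17 and 19 reads. Thus not 1 read was assigned to SLAC1 in 4 root libraries, and its level in shoot was low but above 0 in each library. Against a floor of 3 reads over the 4 root libraries (0.0296 FPKM), SLAC1 was 38.0-fold lower in root. The floor allows for counting error in root alone, and the counting error of the 74 shoot reads is left out. The log2 fold change was -1.68 (SE 0.18, 95% interval -2.08 to -1.27, limma, adjusted p = 1.13e-05), but its size depends on the value added near 0, with -1.07 at a pseudocount of 1, -3.57 at a pseudocount of 0.1 and -5.81 under limma-voom on the recovered reads. Without any 1 shoot library SLAC1 fell below the filter. With the same genes kept in the test its change was -1.78 to -1.55 without each shoot library (limma, highest adjusted p = 6.95e-05). Since SLAC1 reached the filter through shoot alone and had to differ, these fits are no separate support for its call. In a bulk sample, fewer cells of a type and less RNA per cell cannot be told apart.

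One end of SLAC1 shares 125 bases with VPS18 on the opposite strand, a gene for a subunit of vacuolar protein sorting complexes. VPS18 had 15.9, 15.5, 14 and 11.5 FPKM in root replicates 1 to 4, against 17.9, 15.5, 16.5 and 17.4 FPKM in shoot replicates 1 to 4. It did not pass the test (log2 fold change -0.24, limma, adjusted p = 0.0793), and it was read in the root libraries in which SLAC1 had 0 reads. Another gene on the opposite strand, the non-coding RNA AT1G04953, covers 775 bases of SLAC1 and was listed at 0 in all 8 libraries. The library protocol in the labels does not mark strand, and the sources used here do not say how reads in such overlaps were assigned, so the level of SLAC1 is uncertain by the reads that fell there.

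ALMT12 (AT4G17970, chromosome 4, 9975365 to 9978023, plus strand) had 0.365, 0.761, 0.804 and 0.706 FPKM in root replicates 1 to 4, against 2.46, 3.45, 1.66 and 1.26 FPKM in shoot replicates 1 to 4. Each shoot library was above each root library, but the shoot values spread widely between replicate 4, the lowest, and replicate 2, the highest. In contrast to SLAC1, ALMT12 was read in every root library, with 73 reads there and 160 in shoot. The mean was 0.659 ± 0.20 FPKM in root and 2.21 ± 0.965 FPKM in shoot (SD, n = 4 each), 3.35-fold higher in shoot. Its log2 fold change was -1.18 (SE 0.26, 95% interval -1.75 to -0.60, limma, adjusted p = 0.0020).

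A list of 9 guard cell marker genes was higher in shoot in 9 of 9 cases, of which 4 reached the filter through shoot alone and had to differ. Its summed level was 6.67 to 13.4 FPKM in the root libraries and 1136 to 1465 FPKM in the shoot libraries, and FAMA, a regulator of guard cell fate, and KAT2, a guard cell potassium channel, were at 0 in all root libraries. The median log2 fold change of the list was -3.85 (-3.86 with genes at 0 in root set to their bound), against 0.07 for all genes tested. TGG1, a myrosinase abundant in guard cells and the most abundant gene of the list over all 8 libraries, averaged 0.518 ± 0.920 FPKM in root and 964 ± 104 FPKM in shoot (SD, n = 4 each). Relative to its mean in shoot, the mean in root was 0.298 times for ALMT12, 0.112 times for CYP86A2 and 0.0783 times for SCAP1, the highest of the 9 markers and named after their values were seen. What part the number of guard cells has in the shoot levels of SLAC1 and ALMT12 was not tested.

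SLAH1 (AT1G62280, chromosome 1, 23007044 to 23008610, minus strand) had 16.1, 14.2, 26.5 and 19.2 FPKM in root replicates 1 to 4, against 0.0771, 0, 0.134 and 0 FPKM in shoot replicates 1 to 4. The shoot values rest on 3 reads in all, and the root values on 1538. The tissues were far apart, with root replicate 3 the highest. The ratio of scaled reads, root over shoot, was 333 (95% counting interval 114 to 1617). The log2 fold change was 5.11 (SE 0.20, 95% interval 4.67 to 5.55, limma, adjusted p = 3.17e-09), and 2.87% of the tested genes had a larger change in either direction. It was 7.91 under limma-voom on the recovered reads. Without any 1 root library SLAH1 fell below the filter. With the same genes kept in the test its change was 4.94 to 5.23 without each root library (limma, highest adjusted p = 1.16e-07). Since SLAH1 reached the filter through root alone and had to differ, these fits are no separate support for its call.

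SLAH4 (AT1G62262, chromosome 1, 23000157 to 23002096, minus strand) lies 4947 bases from SLAH1 on the same strand, with 1 protein-coding gene between them. It had 0.0840, 0, 0.462 and 0.108 FPKM in root replicates 1 to 4, against 0, 0, 0 and 0.159 FPKM in shoot replicates 1 to 4. These are 14 reads in root and 2 in shoot, 10 of them in root replicate 3, and the tissues overlapped. The ratio of scaled reads, root over shoot, was 4.55 (95% counting interval 1.05 to 41.2). With no filter on low values the log2 fold change was 0.26 (SE 0.20, limma, adjusted p = 0.287). Every value of SLAH4 was below the 0.5 FPKM added on this scale. The counting interval lay just above 1, but it leaves out the spread between libraries. These values do not settle whether SLAH4 differs between the tissues.

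SLAH1 and SLAH4 are the most alike of the 5 SLAC genes in sequence, with 937 identical bases of 1098 aligned coding bases (85.3%), whereas the other pairs of the family were 56.4% to 65.7% identical. The longest run their coding sequences share is shown because a read that lies within it matches both genes. It starts at coding base 442 of SLAH1 and at coding base 418 of SLAH4, both on chromosome 1, and is printed in lower case throughout. ALMT1 and its neighbour ALMT2, which are 87.1% identical in coding sequence and lie 1656 bases apart on chromosome 1, share another run, from coding base 158 of ALMT1 and coding base 149 of ALMT2.
SLAH1 and SLAH4: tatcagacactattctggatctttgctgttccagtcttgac
ALMT1 and ALMT2: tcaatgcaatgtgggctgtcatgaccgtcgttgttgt
The run of SLAH1 and SLAH4 is 41 bases long and that of ALMT1 and ALMT2 is 37, and neither pair of transcripts shares a stretch of 50 bases. A read of 50 bases or more thus cannot match both transcripts of a pair without a mismatch. The read length is not given here, and the sources used here do not say how reads matching more than 1 copy were treated. Whether this touches the few reads of SLAH4 was not tested, and they stay uncertain.

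SLAH3 (AT5G24030, chromosome 5, 8118317 to 8122914, minus strand) had 31.8, 25.8, 35.9 and 32.3 FPKM in root replicates 1 to 4, against 10.2, 7.39, 14.5 and 6.91 FPKM in shoot replicates 1 to 4. It was the SLAC gene with the highest level in each tissue, and the lowest root library stood well above the highest shoot library. The mean was 31.4 ± 4.19 FPKM in root and 9.75 ± 3.50 FPKM in shoot (SD, n = 4 each), 3.22-fold higher in root. Its log2 fold change was 1.69 (SE 0.21, 95% interval 1.23 to 2.15, limma, adjusted p = 3.02e-05).

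SLAH2 (AT4G27970, chromosome 4, 13918165 to 13920378, minus strand) had 3.55, 5.86, 5.43 and 5.50 FPKM in root replicates 1 to 4, against 1.24, 1.59, 1.22 and 0.681 FPKM in shoot replicates 1 to 4. Root replicate 1 was the lowest of its tissue and still above every shoot library. The mean was 5.09 ± 1.04 FPKM in root and 1.18 ± 0.374 FPKM in shoot (SD, n = 4 each), 4.30-fold higher in root. The log2 fold change was 1.74 (SE 0.21, 95% interval 1.27 to 2.21, limma, adjusted p = 2.81e-05). Set side by side, the intervals of SLAH2 and SLAH3 covered nearly the same range although SLAH3 was the more abundant gene in every library.

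ALMT1 (AT1G08430, chromosome 1, 2658602 to 2661310, plus strand) had 6.59, 5.02, 6.89 and 6.90 FPKM in root replicates 1 to 4, against 0.176, 0.637, 0.0509 and 0 FPKM in shoot replicates 1 to 4. Root replicate 2 was the lowest root library and shoot replicate 2 the highest shoot library, with 10 of the 14 shoot reads, and the tissues did not overlap. The ratio of scaled reads, root over shoot, was 31.3 (95% counting interval 18.5 to 57.6). Its log2 fold change was 3.33 (SE 0.25, 95% interval 2.77 to 3.89, limma, adjusted p = 5.74e-07), and 9.58% of the tested genes had a larger change in either direction. Under limma-voom on the recovered reads the change was 5.59.

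ALMT9 (AT3G18440, chromosome 3, 6328027 to 6330816, plus strand) had 11.9, 11.8, 12.9 and 10.5 FPKM in root replicates 1 to 4, against 11.2, 12.4, 13.0 and 13.9 FPKM in shoot replicates 1 to 4. The tissues overlapped, and the coefficient of variation was 8.11% in root and 9.23% in shoot, the lowest of the 8 genes in each tissue. The mean was 11.8 ± 0.954 FPKM in root and 12.6 ± 1.17 FPKM in shoot (SD, n = 4 each). The log2 fold change was -0.10 (SE 0.10, 95% interval -0.33 to 0.13, limma, adjusted p = 0.426), and 91.3% of the tested genes had a larger change in either direction.

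The ALMT9 result was the only one of the 7 tested genes that turned with the scaling of the libraries. With library totals alone its log2 fold change was 0.44 (95% interval 0.19 to 0.68, limma, adjusted p = 0.0038). Relative to the median of all genes it was -0.15 with library totals and -0.17 with the authors' scaling. The other 6 genes kept their direction and their call under the 3 scalings compared, and of these SLAC1 and SLAH1 had to differ.

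**Figure D2:**
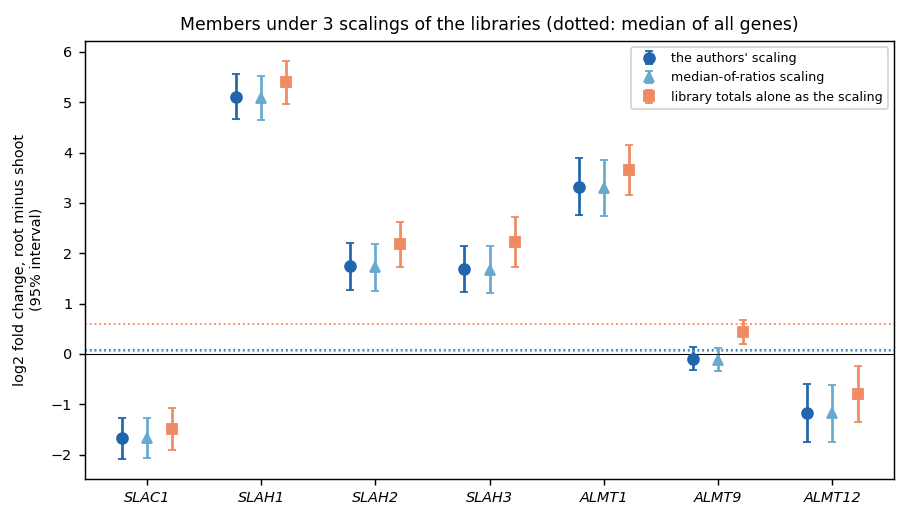
Log2 fold change, root minus shoot, of the 7 tested genes under 3 scalings of the libraries, with 95% intervals and dotted lines at the median of all genes under each scaling. ALMT9 moves to 0.44 under library totals alone, where the median of all genes is 0.59, and SLAC1, SLAH1, SLAH2, SLAH3, ALMT1 and ALMT12 stay on their side of 0.

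Within root the order of the mean levels was SLAH3, SLAH1, ALMT9, ALMT1, SLAH2, ALMT12, SLAH4 and SLAC1. SLAH3 and SLAH1 overlapped over libraries although SLAH3 was the higher in 4 of 4, and ALMT1 and SLAH2 overlapped with ALMT1 the higher in 3 of 4. ALMT12 and SLAH4 overlapped as well, as did SLAH4 and SLAC1, whereas the steps between SLAH1, ALMT9 and ALMT1 and between SLAH2 and ALMT12 did not overlap. Within shoot the order was ALMT9, SLAH3, ALMT12, SLAH2, SLAC1, ALMT1, SLAH1 and SLAH4. There ALMT9 and SLAH3 overlapped, with ALMT9 the higher in 3 of 4 libraries. ALMT12 and SLAH2 overlapped with ALMT12 the higher in 4 of 4, SLAH2 and SLAC1 overlapped with SLAH2 the higher in 2 of 4, and the last 3 genes overlapped in turn. In shoot the steps between SLAH3 and ALMT12 and between SLAC1 and ALMT1 did not overlap.

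Per gene length, the 5 SLAC genes summed to 55.7 ± 9.58 FPKM in root and 12.2 ± 3.57 FPKM in shoot (SD, n = 4 each). SLAH3 made up 56.8% ± 3.75 of that sum in root and 79.2% ± 4.96 in shoot. SLAH1 made up 33.7% ± 3.62 in root and 0.346% ± 0.409 in shoot, and SLAC1 0% in root and 9.82% ± 3.75 in shoot. The share of SLAH2 overlapped between the tissues, at 9.31% ± 2.57 in root and 10.2% ± 4.17 in shoot. As counted, SLAC1 was thus a small part of the family's transcript level in shoot as well, where most of the sum was SLAH3. The share of SLAC1 is uncertain by the reads in its overlaps with genes on the opposite strand.

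The 14 ALMT genes summed to 35.6 ± 3.89 FPKM in root and 23.8 ± 1.42 FPKM in shoot (SD, n = 4 each). ALMT9 made up 33.2% ± 1.65 of the sum in root and 53.2% ± 4.56 in shoot. ALMT1 made up 18.0% ± 2.89 in root and 0.875% ± 1.13 in shoot, and ALMT12 1.88% ± 0.613 in root and 9.24% ± 3.72 in shoot. A gene outside the 8, AT4G00910, which the table annotates as an ALMT family protein without a symbol, made up 27.1% ± 4.21 in root and 0.305% ± 0.314 in shoot. ALMT4, a vacuolar malate channel, made up 16.2% ± 1.23 in root and 27.6% ± 1.99 in shoot. As counted, the family's sum in root was thus mainly ALMT9, AT4G00910, ALMT1 and ALMT4, and in shoot mainly ALMT9 and ALMT4.

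**Figure D3:**
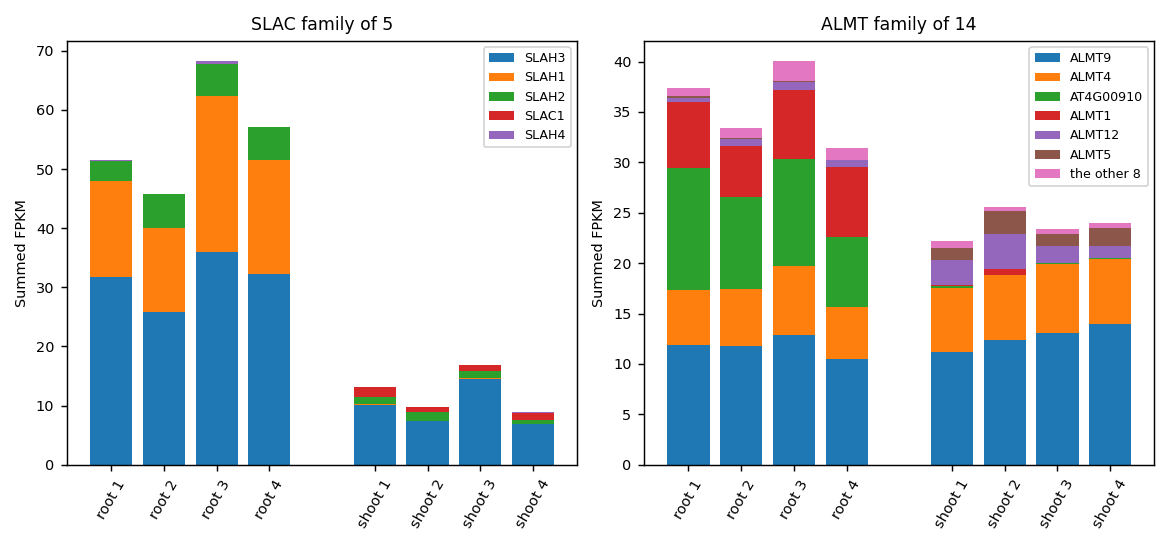
Summed FPKM per library of the 5 SLAC genes (left) and the 14 ALMT genes (right), stacked by gene, with the 4 root libraries left of the 4 shoot libraries. In the SLAC family the root bars hold SLAH3 and SLAH1 and the shoot bars mostly SLAH3, and in the ALMT family the ALMT9 part has nearly the same height in both tissues.

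Of the other 11 ALMT genes, 7 were below the filter and 4 were tested. Of those 4, 2 were called higher in root, 1 was called higher in shoot and 1 was not called, and their median log2 fold change was 0.55 against 0.07 for all genes tested. The 3 called, AT4G00910, ALMT13 and ALMT5, reached the filter only through the tissue where they were high and had to differ, so nothing is read from these counts. AT4G00910 averaged 9.69 ± 2.18 FPKM in root and 0.0693 ± 0.0696 FPKM in shoot (SD, n = 4 each), a log2 fold change of 4.14 (SE 0.19, limma, adjusted p = 9.57e-09). AT4G00910 shares 1953 bases with AT4G00905 on the opposite strand, which was listed at 0 in all 8 libraries. How reads in that overlap were assigned is not known, so the level and the family share of AT4G00910 are uncertain. ALMT5 averaged 0.0852 ± 0.0706 FPKM in root and 1.6 ± 0.564 FPKM in shoot, a log2 fold change of -1.81 (SE 0.21, limma, adjusted p = 1.77e-05). ALMT4, the most abundant of the 4 over all 8 libraries though not in root, averaged 5.76 ± 0.799 FPKM in root and 6.54 ± 0.228 FPKM in shoot and did not pass the test (limma, adjusted p = 0.213). ALMT3, ALMT11 and AT3G11680 were listed at 0 in all 8 libraries.

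The CLC genes encode a separate family of anion channels and exchangers of vacuoles, plastids and the Golgi. All 7 were tested. Of them, 3 were called higher in root, 2 were called higher in shoot and 2 were not called. The shares over all tested genes were 37.6% higher in root and 32.0% higher in shoot. The list's median was -0.05 against 0.07 for all genes tested. CLC-A, the vacuolar nitrate and proton exchanger, averaged 67.9 ± 9.09 FPKM in root and 35.4 ± 6.29 FPKM in shoot (SD, n = 4 each), a log2 fold change of 0.94 (SE 0.14, limma, adjusted p = 1.02e-04). CLC-E, a protein of the chloroplast thylakoid, averaged 1.53 ± 0.53 FPKM in root and 10.2 ± 0.742 FPKM in shoot, a log2 fold change of -2.42 (SE 0.18, limma, adjusted p = 4.12e-07). The list's counts moved to 5 called higher in root and 1 called higher in shoot with library totals alone, and to 1 higher in root without root replicates 1 and 2, a setting chosen after seeing the data.

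**Figure D4:**
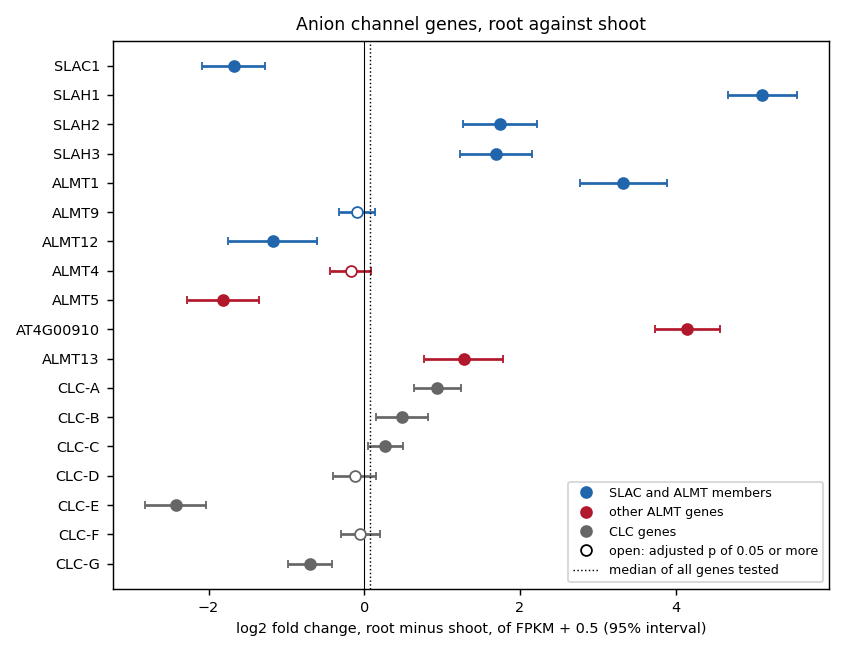
Log2 fold change, root minus shoot, of FPKM + 0.5 with 95% intervals for the 7 tested SLAC and ALMT genes, the 4 other tested ALMT genes and the 7 CLC genes, with open points for an adjusted p of 0.05 or more and a dotted line at the median of all tested genes. SLAH1 at 5.11 and AT4G00910 at 4.14 lie farthest towards root, and CLC-E at -2.42 lies farthest towards shoot.

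Of 16 genes for kinases that act on SLAC channels and for calcium sensors that work with them, 3 were below the filter. CPK20 and CIPK11 were listed at 0 in all 8 libraries, and CBL5 was listed at 0 in root and had 3 reads in shoot. The other 13 were tested, 6 of them called higher in root, 1 called higher in shoot and 6 not called. Over all tested genes the shares were 37.6% higher in root and 32.0% higher in shoot. Their median log2 fold change was 0.26 against 0.07 for all genes tested. OST1, the abscisic acid kinase of guard cells, averaged 5.43 ± 0.767 FPKM in root and 8.39 ± 0.917 FPKM in shoot (SD, n = 4 each), a log2 fold change of -0.59 (SE 0.13, limma, adjusted p = 0.0024). CPK6, a calcium-dependent kinase, averaged 41.9 ± 0.377 FPKM in root and 16.6 ± 1.13 FPKM in shoot, a log2 fold change of 1.32 (SE 0.08, limma, adjusted p = 7.94e-08). CPK3, the most abundant calcium-dependent kinase of the list, averaged 101 ± 1.39 FPKM in root and 93.1 ± 3.00 FPKM in shoot and did not pass the test (limma, adjusted p = 0.161).

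OST1 was thus lower in root, but at a level above 0 in every root library, in which SLAC1 had 0 reads. With library totals alone the kinase list had 11 genes called higher in root and 0 called higher in shoot, and OST1 was no longer called (log2 fold change -0.07). The count higher in shoot was 3 with the median-of-ratios scaling and with limma-voom on the recovered reads, where CPK21 and CPK23, named here after their values were seen, joined OST1.

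The phosphatases that hold OST1 and SLAC1 off were read in both tissues too. All 5 were tested, 2 of them called higher in root, 0 called higher in shoot and 3 not called. Among all tested genes, 37.6% were called higher in root and 32.0% higher in shoot. The median of the 5 was 0.21 against 0.07 for all genes tested. ABI2 averaged 4.01 ± 0.196 FPKM in root and 1.45 ± 0.514 FPKM in shoot (SD, n = 4 each), a log2 fold change of 1.24 (SE 0.19, limma, adjusted p = 1.57e-04). ABI1, the most abundant of the 5 in each tissue, averaged 40.1 ± 5.27 FPKM in root and 34.4 ± 2.96 FPKM in shoot and did not pass the test (limma, adjusted p = 0.0987). With library totals alone all 5 were higher in root.

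A list of 6 genes is tied to the control of SLAC1 by carbon dioxide, among them the kinases HT1, MPK4 and MPK12. It held 1 gene called higher in root and 5 called higher in shoot. Such calls made up 37.6% and 32.0% of all tested genes. The list's median was -1.36 against 0.07 for all genes tested. AT3G01490, which the table gives a protein kinase domain, averaged 1.20 ± 0.858 FPKM in root and 35.2 ± 4.29 FPKM in shoot (SD, n = 4 each), a log2 fold change of -4.53 (SE 0.32, limma, adjusted p = 2.97e-07). AT5G50000, annotated as a protein kinase and the most abundant of the 6, averaged 30.9 ± 0.498 FPKM in root and 41.4 ± 5.83 FPKM in shoot, a log2 fold change of -0.41 (SE 0.10, limma, adjusted p = 0.0050). DTX56, annotated as a detoxification protein with a MATE domain, went the other way, with 4.73 ± 0.356 FPKM in root and 1.70 ± 0.457 FPKM in shoot, a log2 fold change of 1.27 (SE 0.17, limma, adjusted p = 5.68e-05). With library totals alone 3 of the 6 were higher in shoot, and AT5G50000 turned to 0.14.

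STOP1 controls ALMT1 and other genes of aluminium and acid tolerance. A list of 12 genes covers the STOP1 pathway, STOP1 itself included, and aluminium tolerance, so it is not a list of genes that STOP1 controls. Of the 12 genes 11 were tested, 2 of them called higher in root, 4 called higher in shoot and 5 not called. For all tested genes the shares were 37.6% higher in root and 32.0% higher in shoot. The list's median was -0.10 against 0.07 for all genes tested. STOP2, a homologue of STOP1, averaged 17 ± 2.38 FPKM in root and 1.28 ± 0.204 FPKM in shoot (SD, n = 4 each), a log2 fold change of 3.30 (SE 0.14, limma, adjusted p = 7.04e-09). PGIP2, a polygalacturonase inhibitor of the cell wall, averaged 3.76 ± 1.59 FPKM in root and 60.5 ± 11.6 FPKM in shoot, a log2 fold change of -3.89 (SE 0.24, limma, adjusted p = 1.06e-07).

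TDT, the malate carrier of the vacuole membrane and the most abundant gene of the STOP1 list over all 8 libraries though not in root, averaged 39.7 ± 4.91 FPKM in root and 130 ± 19.0 FPKM in shoot, a log2 fold change of -1.69 (SE 0.13, limma, adjusted p = 5.06e-07). STOP1 itself, added here after its values were seen, averaged 56.2 ± 6.59 FPKM in root and 55.8 ± 10.4 FPKM in shoot and did not pass the test (limma, adjusted p = 0.888). The list thus went in both directions, with STOP2 higher in root and PGIP2 and TDT higher in shoot. With library totals alone it held 6 genes higher in root.

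**Figure D5:**
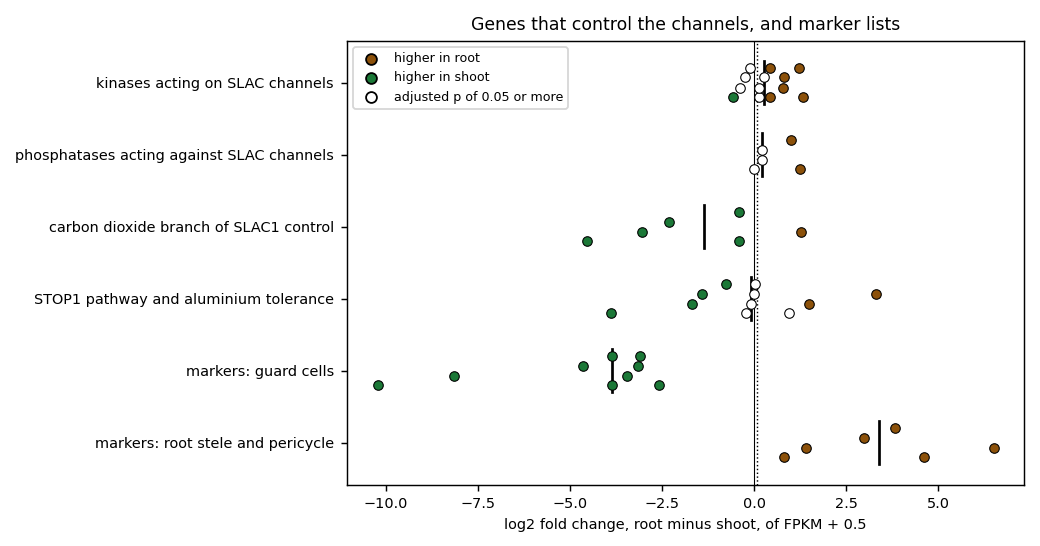
Log2 fold change, root minus shoot, of FPKM + 0.5 for each tested gene of 4 lists that bear on channel control and 2 marker lists, with 1 point per gene, filled where called, a bar at each list's median and a dotted line at the median of all tested genes. The medians of the kinase and phosphatase lists are 0.26 and 0.21, the guard cell markers lie at -2.58 or lower, and the stele and pericycle markers lie above 0.

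The tissue labels were checked against marker genes. The 8 green tissue markers were all higher in shoot, with a median log2 fold change of -8.49, and in root replicates 1 to 4 they were at a median of 0.624%, 0.486%, 0.121% and 0.174% of their mean shoot level. The 6 markers of the root stele and pericycle summed to 336 to 442 FPKM in root and 10.4 to 17.4 FPKM in shoot, and 6 of 6 were higher in root, 1 of them tested through root alone. NRT1.5, a transporter that puts nitrate into xylem sap, averaged 266 ± 29.2 FPKM in root and 2.79 ± 1.91 FPKM in shoot (SD, n = 4 each). The 6 markers of endodermis, root hairs and root cap summed to 232 to 374 FPKM in root and 0.931 to 3.13 FPKM in shoot, with 4 of them at 0 in all shoot libraries, which reached the filter through root alone. What part the cell types of each tissue have in the levels of SLAH1, SLAH2, SLAH3 and ALMT1 was not tested.

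The tested genes with the closest pattern were found by the root mean square difference of log2(FPKM + 0.5), each gene centred on its mean over the same 8 libraries, as a description with no test. The points share the libraries and the authors' scaling. For a called gene a close pattern includes a step between the tissues of nearly the same size on this scale. Closest to SLAC1 was AT1G23390, an F-box protein (difference 0.0918), which averaged 36.6 FPKM in root and 115 FPKM in shoot and so was far more abundant. That likeness rests on the value added near 0, since SLAC1 had 0 reads in root. Against the floor of 3 reads SLAC1 was 38.0-fold lower in root, with the counting error of its shoot reads left out. Closest to SLAH1 were AT1G56680, a chitinase family protein (0.163), the LBD family regulator LBD13 (0.182) and the high-affinity nitrate transporter NRT2.1 (0.186). LBD13 averaged 17.6 FPKM in root and was at 0 in shoot, and NRT2.1 averaged 22.5 FPKM in root and 0.189 FPKM in shoot, levels close to those of SLAH1.

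For SLAH2 the closest genes were MBD4, a methyl-CpG-binding domain protein (0.117), the DOF factor DOF2.1 (0.126) and the sulfotransferase SOT16 (0.135). AT1G02460 was the closest to SLAH3 (0.116), but it averaged 1.95 FPKM in root and 0.299 FPKM in shoot, far below SLAH3. AT2G17070 was the closest to ALMT1 (0.170), with 5.03 FPKM in root and 0.0826 FPKM in shoot. Both likenesses depend on the value added near 0. The closest to ALMT9 was AT2G34040, annotated as an apoptosis inhibitory protein (0.0545), followed by the nuclear pore gene NUP50A (0.0633). ALMT12 had the least close neighbour of the 7 tested genes, the shikimate kinase SK2 (0.226).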

How the data were processed

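RNA-seq of 4 root and 4 shoot samples of Col-0 was analysed, grouped by the labelled tissue. Libraries were made from poly(A) RNA by random priming, with no step that marks strand, per the labels' protocols. The labels carry a growth protocol for a different species, which was set aside. The submitters' processing notes name the TAIR10 build and the tools featureCounts 1.5.0-p3 and HISAT2 2.0.5, and settings for strand and for shared reads were not found in them. Although its name says counts, the table the authors deposited holds FPKM, relative to the gene length they give in another column and to a scaled library size. This was worked out from the values. Multiplied by gene length, the values of a library are whole multiples of a single number, so whole reads could be recovered (largest deviation 1.37e-09 reads). Over the read total, the scaled size came to 1.18 to 1.25 in root and 0.770 to 0.865 in shoot. For a gene of 1 kb, 3 reads in a library equal 0.192 to 0.375 FPKM.

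Root and shoot were compared with limma 3.58.1 (R 4.3.3), with a mean trend in its prior variance, on log2(FPKM + 0.5) for genes of at least 0.5 FPKM in at least 4 libraries, with Benjamini-Hochberg adjustment over 20314 genes and a threshold of 0.05. Read ratios have exact 95% counting intervals after scaling, and against 0 reads a floor of 3 reads over the tissue was used. These cover counting error only, and the floor leaves out the counting error of the other tissue's reads. Replicates of a tissue differed beyond sampling noise (chi-square per gene 6.64 to 20.1), so none was counted as a copy. Alternatives were other pseudocounts, filters and scalings, limma-voom on the recovered reads, a block for replicate number, and leaving out libraries.

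The members and gene lists were chosen with earlier results of these data known. Named genes are the 8 members and, from each list, the most abundant tested gene and the called genes with the largest rise and fall in root, and for each tested member the 3 tested genes of closest pattern, of which not all are printed. Genes were matched by identifier, and 85 of 94 symbols were in the table or in RefSeq's names. The table's coordinates were the same as those of the RefSeq copy of TAIR10.1 for 32532 of 32548 shared genes, among them all 8 members, and sequences were read from that copy with Biopython 1.88. Motifs were searched on both strands of the 250 bases before each gene start.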

Additional observations from a re-analysis of the deposited data

Results flagged for a closer look

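In groups of 4 libraries, a library was singled out where its gap to the nearest other as a share of the group's range was above Dixon's 95% critical value, which chance does in about 1 in 20 groups. Of 60 groups, 4 met this, and their causes were not tested. The 60 include SLAC1 in root, which was at 0 in every library and so had no range to look at. SLAH4 was at 0.159 FPKM in shoot replicate 4 and at 0 in the other shoot libraries. ALMT1 was at 5.02 FPKM in root replicate 2, against 6.59 to 6.90 FPKM in the other root libraries. AT3G01490 was at 28.7 FPKM in shoot replicate 1, against 36.9 to 37.6 FPKM in the other shoot libraries. TGG1 was at 1.89 FPKM in root replicate 1, against 0 to 0.178 FPKM in the other root libraries.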

How the results depend on the processing

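SLAH2, SLAH3, ALMT1 and ALMT12 kept their direction and call in 25 of 25 alternatives, SLAH1 in 21 of 21 and SLAC1 in 20 of 20. Alternatives in which SLAH1 or SLAC1 fell below the filter are not counted. Both reached the filter through 1 tissue alone and had to differ, so nothing is read from their counts. With a filter of at least 1 FPKM SLAC1 was not tested, and 1 member was called higher in shoot. Leaving out each library, the members called higher in shoot numbered 1 to 2 and those higher in root 3 to 4. The lower counts arose because SLAC1 fell below the filter without any 1 shoot library and SLAH1 without any 1 root library. With the genes of the 8-library filter kept, an alternative chosen after seeing the data, the counts were 2 and 4. Without root replicates 1 and 2, which held the most signal of green markers, also chosen after seeing the data, the members' counts were the same. With library totals alone 12221 genes were called higher in root and 3963 higher in shoot, against 7630 and 6500, and 9 values called under either scaling reversed sign: ALMT9 0.44, ALMT4 0.34, CLC-D 0.41, CLC-F 0.48, SNRK2.2 0.43, CPK21 0.30, AT5G50000 0.14, MPK4 0.14 and ALS1 0.44. CPK23 (0.14) and FBL3 (0.32), called under neither, changed sign too, and the uncalled values of HAB1, STOP1 and CAMTA2, near 0, did so under other alternatives. The genes outside the rule for named genes are named because they changed sign. The log2 fold changes of SLAC1 (-5.81) and SLAH1 (7.91) under limma-voom show that the size of a change near 0 reads depends on the prior count. Whether the replicate numbers pair the samples is not stated in the labels. Root and shoot libraries of the same number had correlations of 0.015 to 0.071 in their deviations. Of the root libraries, 3 of 4 correlated best with their own number, and these small values cannot decide the question. With the replicate block, the calls were 7593 for root and 6511 for shoot, 30 listed genes were called against 29, 3 listed kinases were higher in shoot against 1, and the members' counts were 4 and 2.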
